A study of Mus musculus with 18 samples.

Results

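Adipocytes of the inguinal (subcutaneous) fat pad were compared with adipocytes of the epididymal (visceral) fat pad on 6 of the 18 arrays of a series on fat of young adult male C57BL/6 mice. The arrays were taken by their titles, 3 biological replicates of the inguinal and 3 of the epididymal adipocyte fraction. All animals were of that strain, and the labels give no further allele, diet or drug for either group. Collagenase freed the cells, those that floated on centrifugation were taken as adipocytes, and the pellet formed the stromal-vascular fraction (SVF), which alone went through erythrocyte lysis. The other 12 arrays hold interscapular brown fat and the SVFs. They share the estimate of the spread, and the SVFs of the same pads serve as a second comparison. The labels do not say how many animals gave 1 sample, and p-values measure the spread between these biological replicates.

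Subcutaneous and visceral fat pads store triglyceride in adipocytes that look alike under the microscope, yet they arise from different embryonic mesenchyme. In mice, the visceral pads develop in contact with the mesothelium, the epithelium that lines the body cavity and carries the transcription factor Wt1, and the inguinal pad can gain beige adipocytes, which burn fuel through the uncoupling protein Ucp1 as brown adipocytes do. Transcription factors that pattern the embryo, such as T-box, GATA and Hox proteins, stay differently expressed in the pads of the adult.

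A level below is log2 of a gene's background-corrected signal minus log2 of the 75th percentile of all spots of its array, so 0 is the 75th percentile and 1 unit is a doubling. Each gene is represented by its brightest probe. Differences are inguinal minus epididymal, with the standard error (SE) of a limma fit, n = 3 arrays per group, and a p-value adjusted over all 19217 genes tested. A gene is said to be higher or lower, or to have passed, when its adjusted p is under 0.05. Since levels on arrays depend on the probe, they are compared between samples and not between genes.

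The cells were adipocytes by their markers. The mean level of the 25 mature adipocyte genes measured was 4.74, 4.49 and 5.77 on inguinal replicates 1 to 3 and 5.00, 5.08 and 4.94 on epididymal replicates 1 to 3. In the SVFs of both pads it lay from 0.26 to 2.55, below every adipocyte array. Adiponectin (Adipoq) was at 7.98, 7.41 and 8.79 in inguinal and 8.17, 8.15 and 8.25 in epididymal adipocytes (difference -0.13 ± 0.84, adjusted p = 0.946), and the groups overlapped. In fractions of this kind, fewer cells of a type and less RNA per cell cannot be told apart.

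One array stood apart. On epididymal replicate 1, 87.9% of spots were well above background, against 58.0% to 69.5% on the other 5. Probes for olfactory receptors, proteins best known from the nose, were at a median level of -6.50, -7.23 and -6.03 on inguinal replicates 1 to 3 and -3.62, -6.00 and -4.52 on epididymal replicates 1 to 3 (958 probes). Epididymal replicates 1 and 3 were thus far above all inguinal arrays in probes of this kind, and replicate 2 was only just above them. On epididymal replicate 1, 86.8% of these probes were well above background. Without epididymal replicate 1 the genes called fell to 15 higher in inguinal and 102 higher in epididymal adipocytes, and without epididymal replicate 3 to 34 and 183. With each array's olfactory receptor median as a covariate, 3 genes were called in each direction. Since these medians did not overlap between the pads, that fit cannot fully tell a pad difference from the raised signal. Inguinal replicate 3 was read on another scanner model than the other 5 arrays, all of which were extracted with the same software version. The file header of inguinal replicate 1 named another array grid (20060807) than those of the other 5 (20070820).

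**Figure D1:**
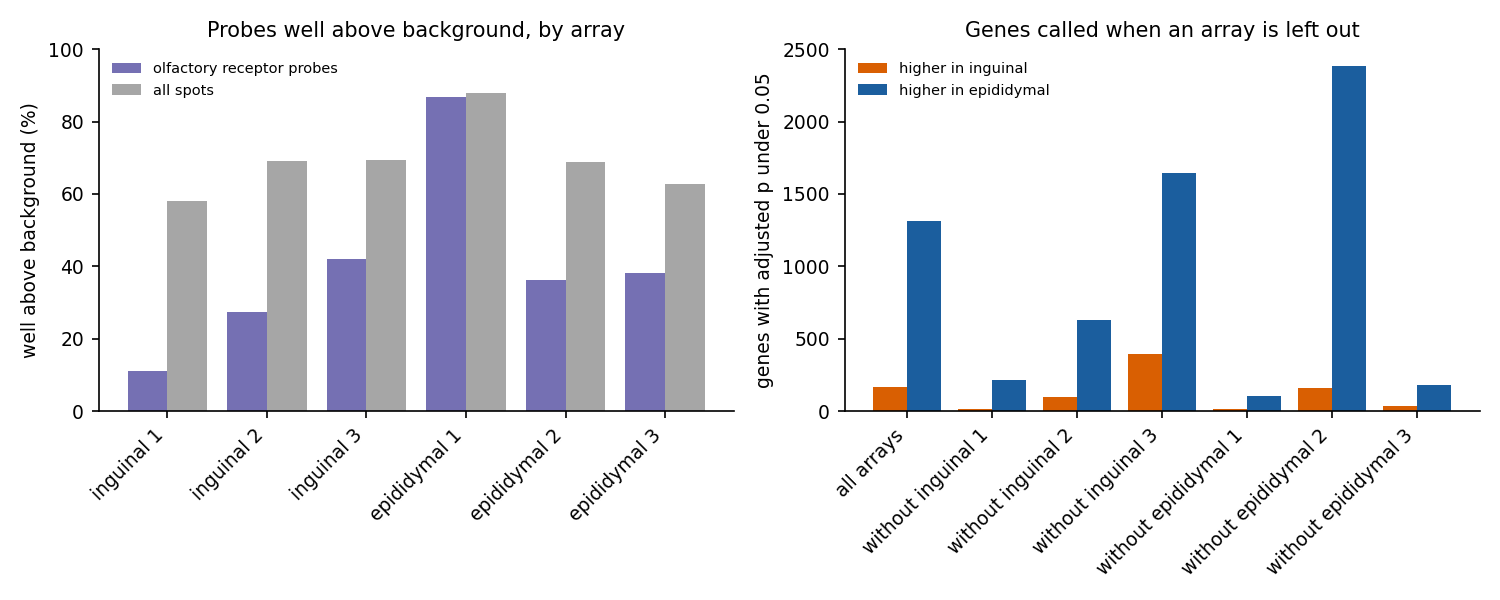
Left, the share of spots (grey) and of olfactory receptor probes (purple) well above background, in percent, on each of the 6 adipocyte arrays. Right, the number of genes with adjusted p under 0.05, higher in inguinal (orange) or epididymal (blue), with all arrays and with each array left out. Epididymal replicate 1 had the tallest bars at left (87.9% and 86.8%), and leaving it out gave 15 and 102 genes against 169 and 1313 with all arrays.

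With all arrays, 1482 of 19217 genes passed (7.71%). Of these, 169 were higher in inguinal adipocytes (0.879%) and 1313 in epididymal adipocytes (6.83%), around a median difference of -0.08 over all genes. The counts of list genes that passed, given below, are to be read beside these shares. The inguinal and epididymal arrays did not overlap for 5222 genes (27.2%), of which 2155 were higher in inguinal (11.2%) and 3067 in epididymal adipocytes (16%). Among the 1313 genes, epididymal replicate 2 was the lowest of its group for 85.5% and replicate 1 the highest for 74.0%, against 47.0% and 42.2% of all genes. Only 473 of the 1313 were well above background on all 3 inguinal arrays, whereas 135 of the 169 were so on all 3 epididymal arrays. The split also depended on the scaling: quantile normalization gave 378 and 648 genes, and the log2 values deposited by the authors gave 235 and 720.

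Genes that passed with all arrays and without each of the 6 in turn numbered 11 in the inguinal and 97 in the epididymal direction. Only 7 of the 11 and 14 of the 97 were well above background on all 6 arrays, and the 97 included the olfactory receptor genes Olfr1205 and Olfr790. Leaving out 1 array always keeps epididymal replicate 1 or 3 in the fit, so it does not remove a signal raised on both. Of the 90 genes named by rule or followed, 75 passed, and 15 of these passed without each array in turn. They were Tbx1, Trib1, Myc, Shisa3 and Osr2 in the inguinal direction and Gata4, Tbx20, Tlx1, Mest, Crabp1, Cst9, Pou1f1, Sult1b1, Slc5a7 and Dpysl5 in the epididymal direction. For each of the others among these 75, leaving out at least 1 array ended the call: 58 of the 75 were lost without epididymal replicate 1, 58 without inguinal replicate 1, 53 without epididymal replicate 3, 34 without inguinal replicate 2, 24 without inguinal replicate 3 and 18 without epididymal replicate 2. The number of such fits in which each gene passed, of 6, and the highest adjusted p among them are given beside the main ones. In the group with the lower level, Irx2, Myh4, Elovl3, Upk3b, Tlx1, Lrp2, Pcnx2, Speer4d, Fam184b, Dpysl5 and Ces5a were well above background on only 1 array, and Tbx15, Lhx8, Shisa3, Slc2a5, Thbs4, Gata4, Myod1, Proz, Cep128, Slc5a7, Bmp5, Hoxc8, Fgf1 and Msln on 2. Their fitted differences rest partly on signal near background.

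Among the transcription factors that pattern fat pads, Tbx15, Tbx1, Lhx8 and Irx2 were higher in inguinal and Tcf21, Gata4, Tbx20 and Bnc1 in epididymal adipocytes. Tbx15, a T-box factor known from subcutaneous fat, was at -0.55, -0.38 and -0.13 on inguinal replicates 1 to 3 and -4.16, -3.95 and -5.21 on epididymal replicates 1 to 3. All inguinal arrays lay more than 3 units above all epididymal arrays, and the difference was 4.09 ± 1.03 (adjusted p = 0.0298), which passed in 2 of 6 fits without 1 array (adjusted p up to 0.114). Of its other probes, 1 gave 3.73 and 1 gave 0.27. Tbx1, a T-box factor that marks beige adipocytes in mice, was at -0.18, 0.25 and -0.15 on inguinal replicates 1 to 3 and -3.16, -3.88 and -4.08 on epididymal replicates 1 to 3. It was 3.68 ± 0.46 higher in inguinal adipocytes (adjusted p = 0.00148) and passed in 6 of 6 fits.

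Tcf21, a basic helix-loop-helix factor of visceral mesenchyme and white fat progenitors, showed the reverse. It was not well above background on any inguinal array, at -6.79, -7.59 and -6.77, and was at -2.00, -1.75 and -0.99 on epididymal replicates 1 to 3. The groups did not overlap. That makes it at least 15.0-fold above its inguinal level, where the fold is a lower bound taken against the lowest level well above background on each inguinal array, or the probe's own where that was higher (adjusted p = 0.021; 2 of 6 fits, up to 0.0839). Its probe and its promoter are shown because Tcf21 had the largest bound among the depot patterning factors that passed. The 60-base probe lies at chr10:22507173-22507232 of the mm8 build given in the file headers, on the minus strand, and its capitals mark whole codons in the only reading frame without a stop codon.
Tcf21 probe: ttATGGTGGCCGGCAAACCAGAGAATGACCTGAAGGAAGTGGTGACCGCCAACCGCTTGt
The promoter is the 250 bases before the gene's start in RefSeq (GRCm38.p6, chr10:22820144-22820393, minus strand). Its capitals mark the 1 match to AGATAA, the core that GATA factors bind, searched on both strands, whose first base lies 31 bases before the start.
Tcf21 promoter: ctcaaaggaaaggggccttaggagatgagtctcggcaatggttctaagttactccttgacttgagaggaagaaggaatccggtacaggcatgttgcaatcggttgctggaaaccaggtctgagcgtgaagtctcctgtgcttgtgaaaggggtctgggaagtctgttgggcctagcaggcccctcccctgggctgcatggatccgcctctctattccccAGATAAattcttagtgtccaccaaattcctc
Of 32851 promoters in the RefSeq table, 3281 (9.99%) hold AGATAA in the same 250 bases, and the match is a description of the sequence only. It is shown since the GATA factor Gata4 moved in the same direction as Tcf21.

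Gata4, a GATA factor of heart, gut and gonad development, was at -6.03, -3.83 and -4.04 on inguinal replicates 1 to 3 and 1.53, -1.18 and 0.22 on epididymal replicates 1 to 3. Every epididymal array was above every inguinal one by more than 2 units, although the epididymal arrays themselves ranged widely. The difference was -4.83 ± 0.79 (adjusted p = 0.00653), and Gata4 passed in 6 of 6 fits. A second Gata4 probe, not well above background on any of the arrays, gave -1.06. Tbx20, a T-box factor of the heart, was at -2.45, -3.72 and -0.12 on epididymal replicates 1 to 3 and not well above background on any inguinal array, which makes it at least 10.5-fold above its inguinal level (adjusted p = 0.00344, 6 of 6 fits). Of its 3 other probes, 1 was well above background on 1 inguinal array and differed by 0.13, and the other two were not on any of the 6 arrays.

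The LIM factor Lhx8, which is known from brown fat, was at -1.20, -0.95 and 1.54 on inguinal replicates 1 to 3 and -3.05, -4.70 and -4.93 on epididymal replicates 1 to 3. It was 4.02 ± 1.06 higher in inguinal adipocytes, without overlap (adjusted p = 0.0355; 0 of 6 fits, up to 0.127). Of the Iroquois homeobox factors, Irx2 was 3.94 ± 1.09 higher (adjusted p = 0.0413; 0 of 6 fits, up to 0.145), while Irx1 had a difference of 3.45 that did not pass (adjusted p = 0.102). Irx3 overlapped between the groups, with a difference of -0.67. Bnc1, a zinc finger factor that mesothelial cells also use, was at least 10.8-fold above its inguinal level (adjusted p = 0.0405; 1 of 6 fits, up to 0.15). Wt1, which marks mesothelium and visceral fat progenitors, was at -6.42, -7.09 and -7.86 in inguinal and -0.55, -0.13 and -0.15 in epididymal adipocytes. It was not well above background on any inguinal adipocyte array. That makes it at least 36.9-fold above its inguinal level, yet it did not pass (adjusted p = 0.0608). The SE of this difference also takes in the spread within the SVF groups. On inguinal SVF replicates 1 to 3 Wt1 was at 4.45, -7.88 and -7.42. Its SVF difference was -5.33 (limma, adjusted p = 0.474), or -9.37 without inguinal SVF replicate 1 (adjusted p = 1.73e-08). Gata6 was detected in both pads with a difference of -0.81 (adjusted p = 0.497), and Shox2 overlapped (-4.48, -4.38 and -4.56 in inguinal and -1.95, -4.91 and -4.79 in epididymal adipocytes). Of the 25 depot patterning genes tested, 4 were higher in inguinal and 4 in epididymal adipocytes (over all genes, 0.879% and 6.83%). The median of the 25 was -0.50.

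**Figure D2:**
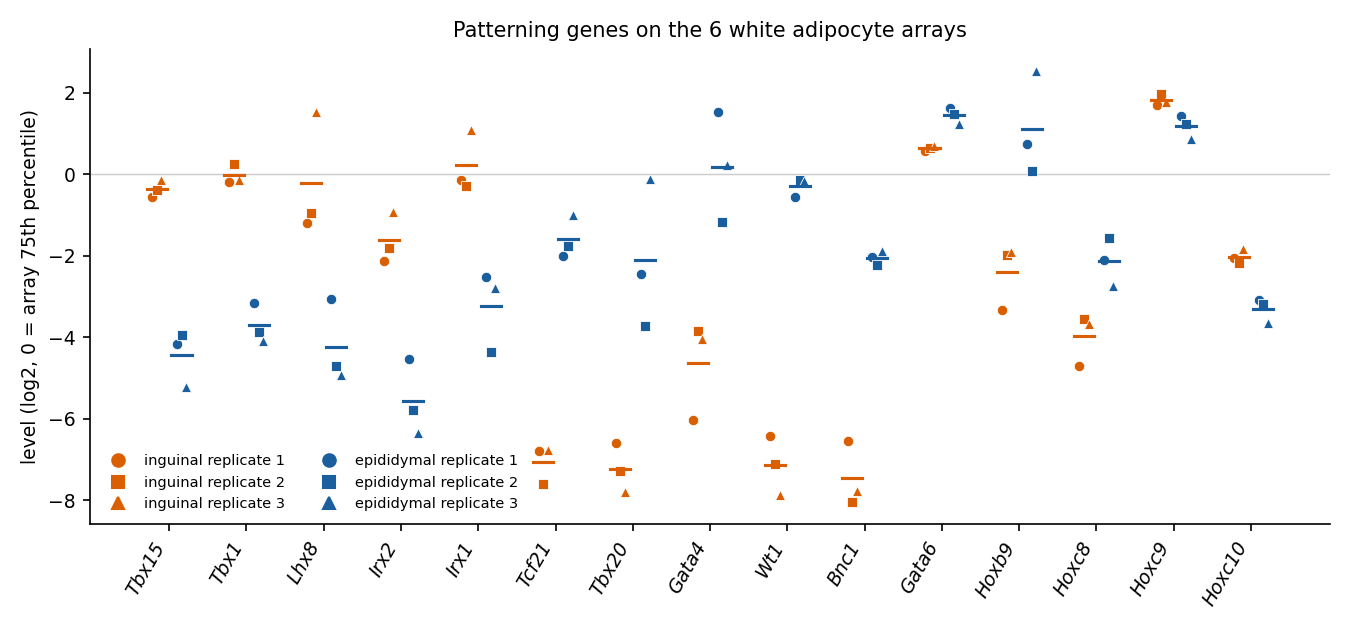
Level (log2, 0 = the array's 75th percentile) of 15 patterning genes on each inguinal (orange) and epididymal (blue) adipocyte array, with symbols for replicates 1 to 3 and bars for group means. Tbx15, Tbx1, Lhx8, Irx2 and Irx1 lay higher on every inguinal array, and Tcf21, Tbx20, Gata4, Wt1 and Bnc1 higher on every epididymal array.

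Of 27 Hox genes tested, homeobox factors that record position along the body axis, Hoxb9 alone passed. It was at -3.32, -1.98 and -1.91 on inguinal replicates 1 to 3 and 0.75, 0.08 and 2.54 on epididymal replicates 1 to 3, which is lower in inguinal adipocytes, at a difference of -3.53 ± 0.66 (adjusted p = 0.0101; 4 of 6 fits, up to 0.052). A second Hoxb9 probe differed by -0.68. At the caudal end of the C cluster, Hoxc10 was at -2.04, -2.17 and -1.84 in inguinal and -3.09, -3.18 and -3.64 in epididymal adipocytes, without overlap, and its difference of 1.29 ± 0.48 did not pass (adjusted p = 0.112). A second Hoxc10 probe had the opposite sign, at -0.56, with overlap. In the SVF of the same pads the Hoxc10 difference was 3.78 and passed (adjusted p = 0.00198). The values for Hoxc9 were 0.63 (adjusted p = 0.398) and for Hoxc8 -1.84 (adjusted p = 0.0817), and the median over the 27 genes was -0.52.

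Of 24 thermogenic genes tested, 4 passed, all higher in inguinal adipocytes (over all genes, 0.879%): Slc27a2, Cidea, Cox8b and Cox7a1. The median of the 24 was 1.13 against -0.08 over all genes, and 20 had a positive difference. Without inguinal replicate 3 the median was 0.73. Cidea, a lipid droplet protein abundant in brown and beige fat, was at 7.46, 7.15 and 7.84 on inguinal replicates 1 to 3 and 2.91, 2.45 and 6.46 on epididymal replicates 1 to 3. Epididymal replicate 3 lay about 1 unit below the inguinal arrays and well above its own replicates. The difference was 3.54 ± 1.01 (adjusted p = 0.0452; 1 of 6 fits, up to 0.21). It was 4.80 without epididymal replicate 3 (adjusted p = 0.0307) and 3.03 without replicate 1 (adjusted p = 0.21).

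Ucp1, the uncoupling protein itself, was at 1.99, 2.18 and 4.34 on inguinal replicates 1 to 3 and -3.34, -1.05 and 4.51 on epididymal replicates 1 to 3. Epididymal replicate 3 was as high as the highest inguinal array, and the groups overlapped. The difference of 2.80 ± 1.56 did not pass (adjusted p = 0.29), and without epididymal replicate 3 it was 5.03 (adjusted p = 0.0599). The Ucp1 probe is shown since its signal decides this reading. It lies at chr8:86187994-86188053 (mm8, plus strand), with capitals for whole codons as above.
Ucp1 probe: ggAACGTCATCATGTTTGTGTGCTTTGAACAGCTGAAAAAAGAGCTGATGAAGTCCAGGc

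Cox8b and Cox7a1, muscle and brown fat forms of cytochrome oxidase subunits, were also highest in their group on epididymal replicate 3, without overlap between the groups. Cox8b was at 5.31, 4.85 and 6.12 in inguinal and 1.82, 1.49 and 4.35 in epididymal adipocytes, a difference of 2.87 ± 0.72 (adjusted p = 0.0298), which passed in 2 of 6 fits (up to 0.155). For Cox7a1 the difference was 2.72 ± 0.80 (adjusted p = 0.0497), in 1 of 6 fits (up to 0.215). Slc27a2, a very long chain acyl-CoA synthetase, was at 0.97, 1.12 and 1.37 in inguinal and -4.08, -4.74 and -0.36 in epididymal adipocytes. Again epididymal replicate 3 was the highest of its group while the groups did not overlap, and the difference was 4.21 ± 1.07 (adjusted p = 0.0308), or 5.56 without that replicate (adjusted p = 0.0212). Slc27a2 passed in 2 of 6 fits (up to 0.158). Of its other probes, 1 gave 0.83, with overlap, and 1, not well above background on any of the 6 arrays, gave -0.04. Without epididymal replicate 3, 5 of the 24 genes passed, and without epididymal replicate 1 none did.

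Other thermogenic genes had positive differences that did not pass. They were 3.27 for the fatty acid elongase Elovl3, 2.27 for the muscle form of carnitine palmitoyltransferase Cpt1b and 1.23 for the coactivator Ppargc1a. Prdm16, a regulator of brown fat identity, had a difference of 0.83, with no overlap (adjusted p = 0.152). The deiodinase Dio2 (-0.43) and the beta-3 adrenergic receptor Adrb3 (-0.34) overlapped between the groups. Of 6 brown adipocyte markers, Lhx8 and Cidea passed, with a mean level over the list of 1.15, 0.54 and 1.10 on the inguinal and -1.33, -1.45 and 0.47 on the epididymal arrays. Zic1, a marker of classical interscapular brown fat, had the opposite sign, at -4.51, -7.85 and -5.90 in inguinal and -2.50, -3.35 and -2.45 in epididymal adipocytes (adjusted p = 0.0698). Whether brown or beige cells had a part in the thermogenic values was not tested.

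**Figure D3:**
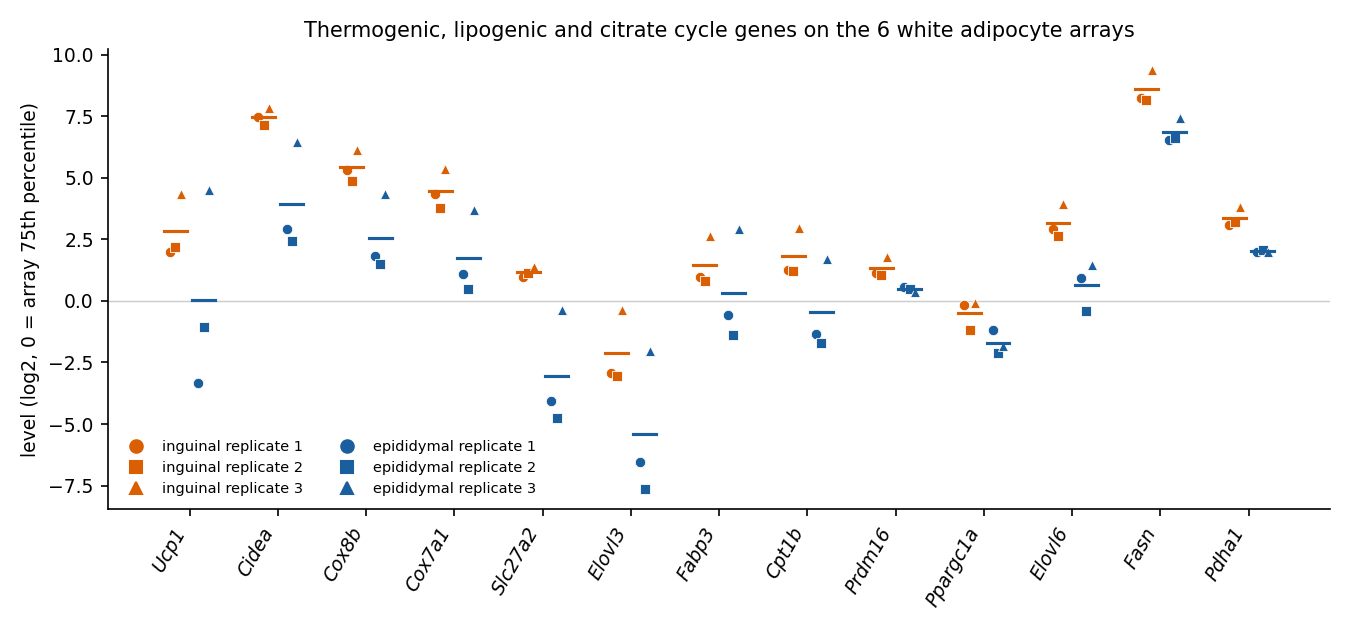
Level (log2, 0 = the array's 75th percentile) of thermogenic, lipogenic and citrate cycle genes on each inguinal (orange) and epididymal (blue) adipocyte array, with symbols for replicates 1 to 3 and bars for group means. Epididymal replicate 3 (blue triangle) lay above its replicates for Ucp1, Cidea, Cox8b, Cox7a1 and Slc27a2, while Pdha1 was alike on all epididymal arrays.

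Genes of the citrate cycle and of fatty acid oxidation that passed were higher in inguinal adipocytes. In the citrate cycle, all 19 genes tested had a positive difference, 11 without overlap (over all genes, 11.2% were higher in inguinal without overlap), and the median was 0.71. Among those that passed were the pyruvate dehydrogenase subunit Pdha1 (1.34 ± 0.36, adjusted p = 0.0392; 1 of 6 fits, up to 0.15) and the isocitrate dehydrogenase subunit Idh3b (1.28 ± 0.35, adjusted p = 0.0397; 2 of 6 fits, up to 0.17). Of 44 respiratory chain genes none passed (11 at an unadjusted p under 0.05), 41 had a positive difference and 16 of these did not overlap (11.2% over all genes), with a median of 0.51 and a range from -0.15 (Ndufa2) to 1.05 (Cyc1). Among 20 genes of fatty acid oxidation, Acadvl, the very long chain acyl-CoA dehydrogenase, passed at 1.49 ± 0.43 (adjusted p = 0.0497; 1 of 6 fits, up to 0.193), with a list median of 0.80. The medians shrank without inguinal replicate 3, to 0.29 for the citrate cycle, 0.25 for the respiratory chain and 0.43 for fatty acid oxidation.

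Of 23 genes of fatty acid synthesis, 1 passed, with a median of 0.91. It was Elovl6, which elongates palmitate, at 2.93, 2.63 and 3.92 in inguinal and 0.94, -0.42 and 1.45 in epididymal adipocytes (2.51 ± 0.60, adjusted p = 0.025; 3 of 6 fits, up to 0.0898). Fatty acid synthase (Fasn) was at 8.24, 8.14 and 9.36 in inguinal and 6.52, 6.61 and 7.42 in epididymal adipocytes, without overlap, and its difference of 1.73 ± 0.74 did not pass (adjusted p = 0.16). Differences that did not pass were also 1.42 for ATP citrate lyase (Acly), 1.31 for acetyl-CoA carboxylase (Acaca) and 0.25 for the desaturase Scd1. Without inguinal replicate 3 the list median was 0.37.

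Among 32 genes of glucose use, 3 passed, all higher in inguinal adipocytes (over all genes, 0.879%). The list median was 0.53, or 0.30 without inguinal replicate 3. The fructose transporter Slc2a5 was at -0.49, -0.65 and -0.73 in inguinal and -4.04, -4.79 and -3.82 in epididymal adipocytes (3.59 ± 0.90, adjusted p = 0.0293; 2 of 6 fits, up to 0.112), with every inguinal array more than 3 units above the epididymal ones. The muscle enolase Eno3 was 1.58 ± 0.39 higher (adjusted p = 0.0273; 2 of 6 fits, up to 0.0861) and the pyruvate dehydrogenase kinase Pdk1 1.23 ± 0.35 higher (adjusted p = 0.0448; 0 of 6 fits, up to 0.149). The insulin-regulated glucose transporter Slc2a4 had a difference of 0.80 that did not pass. No gene of triglyceride synthesis and lipolysis passed (23 tested, 0 at an unadjusted p under 0.05, median 0.24, or -0.13 without inguinal replicate 3), and of fatty acid uptake and lipoprotein genes (23 tested, median 0.16, or -0.09 without it) only Slc27a2, described above, did.

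Of 25 genes that mark mature adipocytes of any white pad, 1 passed, and the median was -0.06, or -0.48 without inguinal replicate 3. Pparg, the nuclear receptor that drives fat cell formation, had a difference of 0.24 ± 0.47 (adjusted p = 0.8), the fatty acid binding protein Fabp4 0.18 and the lipid droplet protein Plin1 0.51. The gene that passed was Npr3, the clearance receptor for natriuretic peptides, at 2.43, 2.70 and 2.86 in inguinal and 4.15, 4.38 and 4.63 in epididymal adipocytes (-1.72 ± 0.37, adjusted p = 0.0174; 3 of 6 fits, up to 0.0768). It was lower on every inguinal array, and 3 of its probes differed by -1.72, -1.65 and -1.41.

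**Figure D4:**
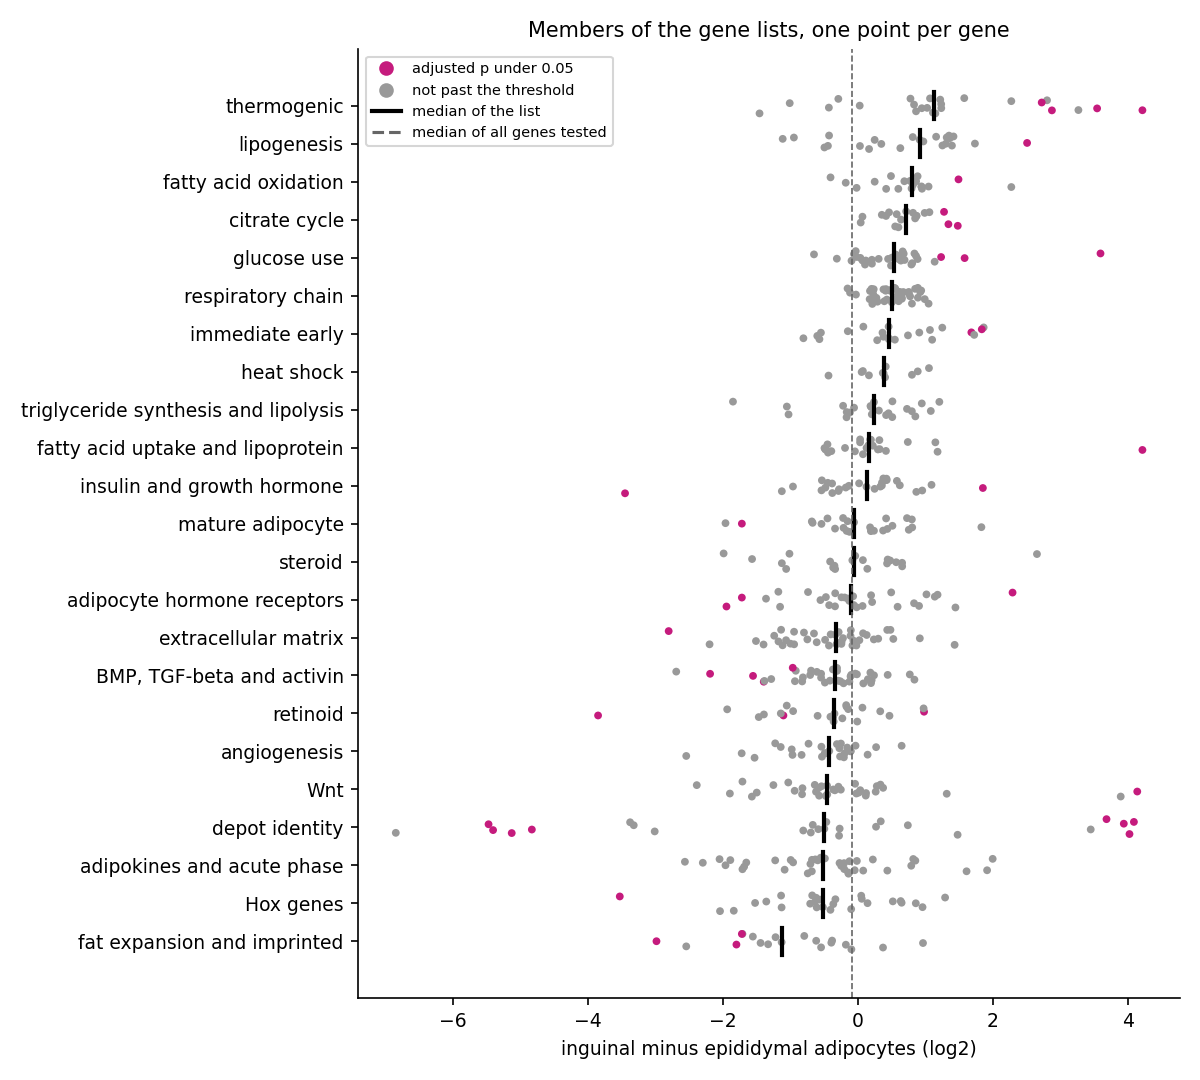
Difference (inguinal minus epididymal adipocytes, log2) of each member of 23 gene lists, 1 point per gene, magenta where adjusted p was under 0.05. Black bars are list medians and the dashed line is the median of all genes, -0.08. The thermogenic list had the highest median (1.13) and the fat expansion and imprinted list the lowest (-1.13).

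Of 38 adipokine and acute phase genes none passed, and 11 had an unadjusted p under 0.05. Leptin (Lep), the hormone that reports fat stores, was at 0.62, 0.53 and 1.99 in inguinal and 2.03, 3.50 and 3.50 in epididymal adipocytes, higher on every epididymal array, and its difference of -1.96 ± 0.85 did not pass (adjusted p = 0.167). Resistin-like alpha (Retnla) had a difference of -1.89, the acute phase protein Saa3 -2.30 and C1qtnf3, an adiponectin paralog, -2.56, each without overlap. The chemokine Ccl2 (2.00) and the interleukin Il6 (1.61) had positive differences with overlap. The median of the 38 was -0.52.

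Of 19 genes linked to fat pad expansion or to imprinting, 3 passed, all higher in epididymal adipocytes (over all genes, 6.83%), and the median was -1.13. Mest, an imprinted gene whose level rises in mouse fat that expands, was at 2.30, 2.24 and 2.22 on inguinal replicates 1 to 3 and 4.63, 5.46 and 5.63 on epididymal replicates 1 to 3. The inguinal arrays were close to each other and more than 2 units below every epididymal array, and the difference of -2.98 ± 0.47 (adjusted p = 0.00558) passed in 6 of 6 fits. Gamma-synuclein (Sncg), an abundant fat cell protein, was lower in inguinal adipocytes, with a difference of -1.80 ± 0.37 (adjusted p = 0.0145; 3 of 6 fits, up to 0.0673), and Npr3 is given above. The Wnt antagonist Sfrp5 (-1.71, adjusted p = 0.0726), the growth factor Fgf1 (-2.54) and the imprinted factor Plagl1 (-1.56) did not overlap but did not pass.

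Of the receptors through which hormones reach adipocytes (30 tested, median -0.10, or -0.37 without inguinal replicate 3), 3 passed. Hcar2, the receptor for hydroxybutyrate and niacin that restrains lipolysis, was at 2.91, 2.87 and 4.35 in inguinal and 1.13, 1.42 and 0.71 in epididymal adipocytes and was 2.29 ± 0.47 higher in inguinal adipocytes (adjusted p = 0.0147; 4 of 6 fits, up to 0.0717). The alpha-1D adrenergic receptor Adra1d was lower in inguinal adipocytes, -1.95 ± 0.48 (adjusted p = 0.0274), though epididymal replicate 2 lay only just above them (-3.38, -2.65 and -2.62 in inguinal and 0.33, -2.33 and -0.81 in epididymal adipocytes; 2 of 6 fits, up to 0.141). Npr3, given above, was the other. Among 29 insulin and growth hormone genes, 2 passed. Socs3, a feedback inhibitor of cytokine signalling, was 1.85 ± 0.50 higher in inguinal adipocytes (adjusted p = 0.0391; 1 of 6 fits, up to 0.151), and Igfbp2, which binds insulin-like growth factors, was at -3.49, -3.68 and -3.66 in inguinal and -0.46, -0.47 and 0.45 in epididymal adipocytes, a difference of -3.45 ± 0.84 (adjusted p = 0.0263; 2 of 6 fits, up to 0.105). None of 20 steroid genes passed (3 at an unadjusted p under 0.05, median -0.06).

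In the retinoid and BMP lists 7 genes passed, 6 of them higher in epididymal adipocytes, against 1313 of the 1482 over all genes. Of 23 retinoid genes (median -0.36), Crabp1, a cellular retinoic acid binding protein, was not well above background on any inguinal array. At -1.45, -3.16 and -1.82 on epididymal replicates 1 to 3, it was at least 9.17-fold higher there (adjusted p = 0.00589, 6 of 6 fits). The retinol binding protein Rbp7 was lower in inguinal adipocytes, with a difference of -1.10 ± 0.32 (adjusted p = 0.0488; 0 of 6 fits, up to 0.201), and the retinoid X receptor Rxrb 0.98 ± 0.27 higher (adjusted p = 0.0414; 2 of 6 fits, up to 0.182).

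Of 38 genes of BMP, TGF-beta and activin signalling, 4 passed, all higher in epididymal adipocytes (over all genes, 6.83%), and the median was -0.34. The BMP antagonist noggin (Nog) was at -3.98, -5.49 and -3.17 in inguinal and -2.35, -1.57 and -2.16 in epididymal adipocytes (-2.19 ± 0.47, adjusted p = 0.0159; 3 of 6 fits, up to 0.0618). The ligand Bmp4 was at -1.79, -2.20 and -2.00 in inguinal and -0.64, -0.40 and -0.28 in epididymal adipocytes (-1.55 ± 0.46, adjusted p = 0.0499; 0 of 6 fits, up to 0.149). Bmp5 differed by -1.40 ± 0.38 (adjusted p = 0.0374) by its brightest probe, which was well above background on 2 arrays of each group (2 of 6 fits, up to 0.188). A second Bmp5 probe, well above background on all 3 epididymal arrays and no inguinal one, differed in the same direction. The activin-binding protein Fstl3 differed by -0.97 ± 0.28 (adjusted p = 0.0497; 2 of 6 fits, up to 0.178). A ligand and its antagonist were thus both higher in the same pad.

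Of 35 Wnt genes (median -0.45) 1 passed, the ligand Wnt10a, known to hold back fat cell formation. It was at -1.34, -1.57 and -4.64 on inguinal replicates 1 to 3 and not well above background on any epididymal array, which makes it at least 5.95-fold above its epididymal level (adjusted p = 0.0485; 1 of 6 fits, up to 0.183). Of 41 matrix genes (median -0.32) 1 passed, thrombospondin 1 (Thbs1), at 0.49, 1.23 and -0.11 in inguinal and 3.15, 4.01 and 2.88 in epididymal adipocytes (-2.80 ± 0.74, adjusted p = 0.0345; 0 of 6 fits, up to 0.126). Thbs4, of the same family, was at 0.90, 0.96 and -1.18 in inguinal and -4.67, -3.49 and -4.32 in epididymal adipocytes and went the other way (4.39 ± 1.09, adjusted p = 0.0289; 2 of 6 fits, up to 0.136). A second Thbs4 probe differed by 1.63. None of 27 angiogenesis genes passed (5 at an unadjusted p under 0.05, median -0.42).

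Immediate early genes, which rise soon after a stimulus or tissue handling, were included as a check of the preparation. Of 22 tested, 2 passed, both higher in inguinal adipocytes, and the median was 0.46. Myc was at 3.79, 4.08 and 2.68 in inguinal and 1.92, 1.64 and 1.49 in epididymal adipocytes (1.83 ± 0.32, adjusted p = 0.00796) and passed in 6 of 6 fits. Egr2 was 1.68 ± 0.42 higher (adjusted p = 0.0281; 2 of 6 fits, up to 0.129). Trib1, a pseudokinase scaffold, was at 4.09, 4.15 and 3.98 on inguinal replicates 1 to 3 and 1.72, 1.39 and 2.02 on epididymal replicates 1 to 3, with no overlap, and was 2.36 ± 0.29 higher in inguinal adipocytes (adjusted p = 0.00148, 6 of 6 fits). None of 11 heat shock genes passed (2 at an unadjusted p under 0.05, median 0.38). Their part in other differences was not tested.

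Outside the lists, the 12 largest inguinal excesses held 2 major urinary proteins, lipocalins that carry pheromones and are best known from liver. Mup1 was at 5.16, 4.77 and 5.57 on inguinal replicates 1 to 3 and -0.95, -1.31 and -1.49 on epididymal replicates 1 to 3. Every inguinal array was more than 5 units above every epididymal one, and the difference was 6.42 ± 1.27 (adjusted p = 0.0129; 3 of 6 fits, up to 0.0594). Other Mup1 probes differed by 3.57 and 4.25. Mup4 differed by 5.79 ± 1.21 (adjusted p = 0.0153; 3 of 6 fits, up to 0.0717). The genes of this cluster are nearly identical, so probes may not separate its members. The membrane protein Shisa3 was at -0.05, -0.13 and -2.81 in inguinal and -5.19, -5.04 and -4.61 in epididymal adipocytes (3.95 ± 0.60, adjusted p = 0.00452, 6 of 6 fits). Osr2, an odd-skipped zinc finger factor, was not well above background on any epididymal array and was at least 3.91-fold above its epididymal level (adjusted p = 0.00653, 6 of 6 fits). Mlana, a melanocyte protein, was at 0.85, 0.62 and -2.38 in inguinal and -4.87, -5.19 and -3.42 in epididymal adipocytes (4.19 ± 0.90, adjusted p = 0.0167; 3 of 6 fits, up to 0.0893), and its SVF difference of 4.80 passed as well (adjusted p = 0.0344).

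Among genes higher in epididymal adipocytes, the protease inhibitor Slpi was well above background on all 6 arrays, at 0.44, 0.18 and -2.84 in inguinal and 5.17, 4.24 and 6.07 in epididymal adipocytes (-5.90 ± 1.27, adjusted p = 0.0167; 4 of 6 fits, up to 0.082). Lgals7, a galectin of epithelia, was at least 20.8-fold higher (adjusted p = 0.0328; 1 of 6 fits, up to 0.127). The endocytic receptor Lrp2 differed by -4.50 ± 1.28 (adjusted p = 0.0452; 2 of 6 fits, up to 0.158) and Pcnx2 by -5.02 ± 1.39 (adjusted p = 0.0417; 2 of 6 fits, up to 0.151). The homeobox gene Tlx1 was at -6.67, -5.12 and -6.32 in inguinal and -0.61, -3.04 and -0.54 in epididymal adipocytes (-4.65 ± 0.73, adjusted p = 0.00559, 6 of 6 fits). Epididymal replicate 2 was the lowest of its group for Tlx1, as for the genes that follow.

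Several others shared a pattern within the epididymal group. The protein Z gene Proz was at 1.07, -1.96 and 2.29 on epididymal replicates 1 to 3, Cep128 at 1.19, -1.27 and 2.14, Dpf1 at 2.14, -1.33 and 2.12, Npffr2 at -0.49, -3.73 and 0.43 and the cardiac ryanodine receptor Ryr2 at -1.14, -4.13 and 0.21. In each of these replicate 2 was the lowest, by more than 2 units, as it was for the olfactory receptor probes by over 1. Their adjusted p-values were 0.0201, 0.0112, 0.012, 0.0145 and 0.0268, and at most 0.102, 0.0679, 0.0766, 0.0832 and 0.13 when 1 array was left out (passed in 3 of 6, 3 of 6, 3 of 6, 3 of 6 and 2 of 6 fits). Other Cep128 probes kept by the filter differed by -2.19, -0.02 and -0.32, and another kept Ryr2 probe by -1.20. Probes that the filter left out differed by -0.87 and -2.39 for Proz, -2.72 for Npffr2 and -0.36 for Ryr2. Speer4d (-4.68 ± 1.10, adjusted p = 0.0235; 2 of 6 fits, up to 0.13) and Fam184b (-4.57 ± 0.94, adjusted p = 0.0147; 3 of 6 fits, up to 0.0832) complete the 12 with the largest differences, with Myod1 and the mesothelial Upk3b below.

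Markers of mesothelium, the lining of the body cavity, separated the 2 groups of arrays. All 15 tested lay above the inguinal arrays on every epididymal array (over all genes, 16%), 4 passed, and the median was -3.94. With only the 6 adipocyte arrays in the fit 10 of the 15 passed, and without epididymal replicate 1, epididymal replicate 3 or inguinal replicate 3 none did (limma; the medians without epididymal replicate 3 and inguinal replicate 3 were -3.57 and -3.56). Their mean level was -2.95, -3.04 and -4.49 on inguinal replicates 1 to 3 and 0.46, 0.79 and 1.24 on epididymal replicates 1 to 3. Muc16, a membrane mucin, was at -0.17, 0.67 and 0.69 on the epididymal arrays and not well above background on any inguinal one, at least 59.0-fold (adjusted p = 0.0428; 0 of 6 fits, up to 0.141). The uroplakins Upk1b (at least 24.2-fold, adjusted p = 0.0466; 0 of 6 fits, up to 0.158) and Upk3b (-7.17 ± 2.04, adjusted p = 0.0455; 0 of 6 fits, up to 0.14) passed, as did Bnc1. Mesothelin (Msln) differed by -6.92 and the keratin Krt19 by -3.02 without passing. In the epididymal SVF the mean level was 0.62, 1.78 and 2.68, and in the inguinal SVF 3.80, -3.64 and -3.87, with replicate 1 above all other SVF arrays. This spread within the inguinal SVF enters the SE of the adipocyte differences, also in the fits without 1 adipocyte array. The fit with only the 6 adipocyte arrays leaves it out. A marker that did not pass thus need not have varied between adipocyte replicates. The part of mesothelial RNA in the values for Wt1, Bnc1, Tcf21 and Gata4 was not tested. Tcf21 and Gata4 were not on the marker list.

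Of 14 skeletal muscle genes tested, Myh4 and Tnni2 passed, both higher in inguinal adipocytes, and the median was 1.69. The mean level of the 14 was -0.73, -0.84 and -0.89 on inguinal and -2.34, -3.10 and -2.37 on epididymal replicates 1 to 3. The fast myosin heavy chain Myh4 was at 1.73, 1.94 and 0.70 on inguinal replicates 1 to 3 and -3.83, -5.97 and -6.40 on epididymal replicates 1 to 3 (6.86 ± 1.43, adjusted p = 0.0153; 4 of 6 fits, up to 0.0699). Since 1 of the 3 epididymal arrays was well above background, the size of this difference is not fully measured. A second Myh4 probe differed by 5.41. That probe, also well above background on only 1 epididymal array, is shown as a second reading of Myh4. It lies at chr11:67075497-67075556 (mm8, plus strand), with capitals for whole codons in its only reading frame without a stop codon.
Myh4 probe: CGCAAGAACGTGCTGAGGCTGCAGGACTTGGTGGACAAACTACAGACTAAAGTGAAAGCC
The fast troponin Tnni2 was at 2.39, 2.02 and 1.22 in inguinal and -2.60, -2.53 and -2.05 in epididymal adipocytes (4.27 ± 0.85, adjusted p = 0.013; 4 of 6 fits, up to 0.0717), and the neonatal myosin Myh8 differed by 4.64 ± 1.21 (adjusted p = 0.0335; 2 of 6 fits, up to 0.136), while its other 3 probes, not well above background on any inguinal array, differed by -0.45, -1.10 and -0.55. Not every muscle gene went this way. The muscle regulator Myod1 was lower in inguinal adipocytes, with a difference of -5.17 ± 1.01 (adjusted p = 0.012; 3 of 6 fits, up to 0.0767), with epididymal replicate 2 at 1.98, -2.77 and 2.04 in the order of replicates again the lowest, and Acta1 had a difference of -2.23. The muscle signal's part in the values of Eno3, Cox7a1, Cox8b and Cpt1b, which muscle also uses, was not tested.

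Lymphocyte markers split the inguinal replicates. The B and plasma cell list was at 0.94, 0.72 and -3.09 on inguinal and -1.49, -2.81 and -1.33 on epididymal replicates 1 to 3, and the T and NK cell list at -0.35, -0.37 and -3.53 and -2.71, -3.55 and -2.69. Inguinal replicates 1 and 2 were thus high, while replicate 3 was the lowest of all 6 for B cells and within the epididymal range for T cells. The B cell antigen receptor chain Cd79b was at 4.14, 3.94 and -1.37 in inguinal and -0.57, -1.64 and -0.02 in epididymal adipocytes, and the T cell kinase Lck at 2.70, 2.43 and -2.35 in inguinal and -2.77, -2.49 and -2.36 in epididymal adipocytes. None of the 9 B or 12 T and NK cell genes passed in limma, and 2 and 3 had an unadjusted p under 0.05. Without inguinal replicate 3, 4 of the 9 and 6 of the 12 passed, all higher in inguinal adipocytes, and the list medians were 3.16 and 2.54 against 1.73 and 1.48 with all arrays. The Wnt effector Lef1, which T cells also use, followed the same order (2.04, 2.21 and -4.19 in inguinal and -3.20, -4.61 and -3.81 in epididymal adipocytes).

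**Figure D5:**
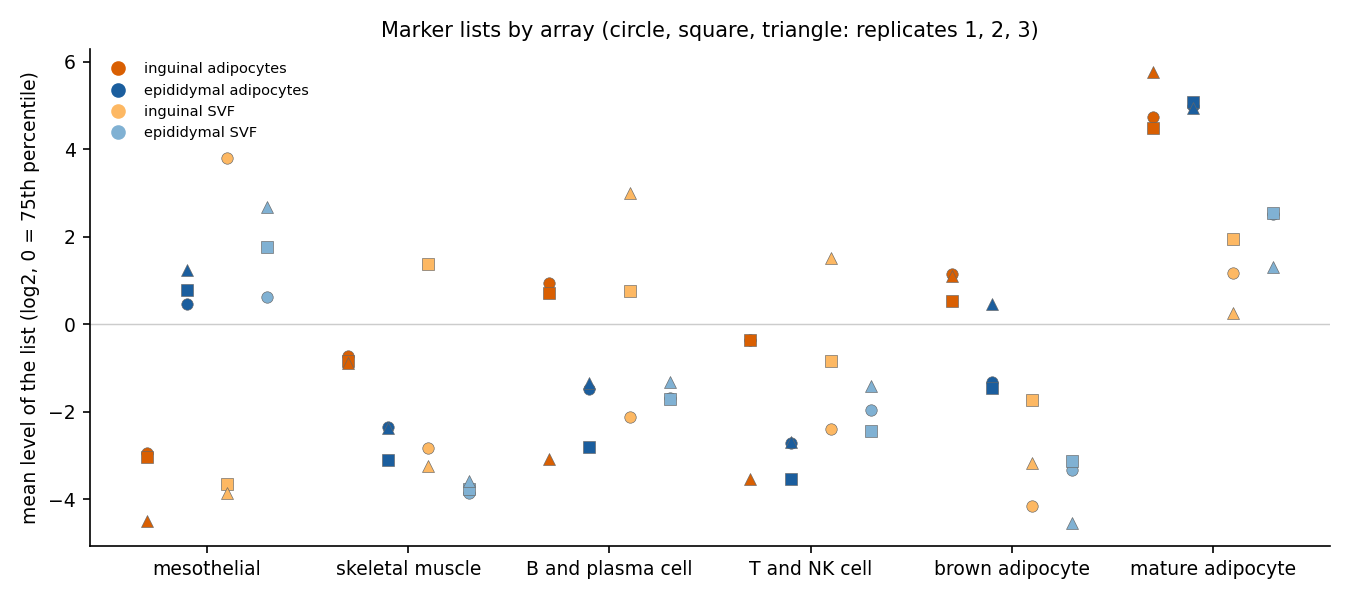
Mean level (log2, 0 = the array's 75th percentile) of 6 marker lists on each adipocyte and SVF array of both pads, circle, square and triangle for replicates 1, 2 and 3. Mesothelial markers were higher on all epididymal than on all inguinal adipocyte arrays, skeletal muscle markers the reverse, and among the adipocyte arrays B cell and T cell markers were highest on inguinal replicates 1 and 2. On the SVF arrays they were highest on inguinal replicate 3.

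None of 15 macrophage genes (median -0.16), 13 endothelial genes (-0.16), 16 progenitor and fibroblast genes (-0.05), 6 mast cell genes (1.31), 8 neutrophil genes (0.30), 9 MHC class II genes (0.25), 6 lymphatic endothelial genes (-0.43) or 9 mammary and skin epithelial genes (-0.04) passed in limma. At an unadjusted p under 0.05 these lists held 0, 1, 1, 2, 1, 0, 0 and 4 genes in that order. Without inguinal replicate 3, 3 of the mast cell and 3 of the progenitor and fibroblast genes passed, all higher in inguinal adipocytes, and the medians were 0.56 for macrophage, 0.34 for progenitor and fibroblast, 1.08 for neutrophil, 1.04 for MHC class II and 0.18 for lymphatic endothelial genes. Of 10 Schwann cell genes, 2 passed, among them Egr2, given above. Of 11 mural cell genes, 1 passed, the pericyte proteoglycan Cspg4 (1.18 ± 0.34, adjusted p = 0.0455; 1 of 6 fits, up to 0.173), whose other probes disagreed in sign (0.47 and -1.26). Lower in inguinal adipocytes were 1 of 4 male tract genes, the carboxylesterase Ces5a (-2.71 ± 0.75, adjusted p = 0.0415; 2 of 6 fits, up to 0.189), and 1 of 3 erythroid genes, the anion exchanger Slc4a1 (-1.44 ± 0.40, adjusted p = 0.0427; 1 of 6 fits, up to 0.217).

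The same contrast in the SVFs gave 57 genes (0.297%), 11 higher in the inguinal SVF (0.0572%) and 46 in the epididymal SVF (0.239%). Of these, 15 also passed in the adipocytes, all in the same direction. Without inguinal SVF replicate 1 the SVF contrast gave 228 genes. The depot difference itself differed between the fractions, by the interaction term of the fit, for 15 genes (0.0781%), 3 with a more positive value in adipocytes (0.0156%) and 12 with a more negative one (0.0624%). Inguinal SVF replicate 1 stood apart from its replicates. Tbx15 was at -5.15, 1.30 and -1.41 on inguinal and -7.21, -6.90 and -6.38 on epididymal SVF replicates 1 to 3, and Tcf21 at 0.57, -6.72 and -5.07 and 0.82, 0.35 and 1.30, so that inguinal replicate 1 was the lowest of its group for Tbx15 and within the epididymal range for Tcf21. The SVF difference of Tbx15 was 5.08 (adjusted p = 0.0567), or 6.78 without that array (adjusted p = 4.49e-05). For Tcf21 it was -4.56 (adjusted p = 0.251), or -6.72 without it (adjusted p = 6.13e-05).

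Tbx1 was an exception. In the SVF it was at -2.16, -1.45 and -0.12 on inguinal and -0.49, 0.40 and 0.10 on epididymal replicates 1 to 3, where the groups overlapped, and the depot difference in adipocytes exceeded that in the SVF by 4.93 ± 0.65 (adjusted p = 0.00756). Trib1 was at 1.85, 1.16 and 0.92 on the inguinal SVF and 1.03, 1.33 and 1.83 on the epididymal SVF arrays, and its excess was 2.45 ± 0.41 (adjusted p = 0.0323). The Tbx1 interaction passed without each of the 12 white fat arrays in turn (adjusted p up to 0.0397), and that of Trib1 in 5 of these 12 fits (up to 0.105). In the epididymal direction, Gata4 had an SVF difference of -0.58 (adjusted p = 0.846) but no interaction that passed (adjusted p = 0.188). Pitx1, a hindlimb homeobox factor, was one of the 15 by its SVF difference: it was at -0.79, -2.88 and -3.35 on inguinal and -7.90, -7.97 and -7.70 on epididymal SVF replicates 1 to 3, against -5.98, -5.05 and -4.83 in inguinal and -4.26, -3.99 and -6.11 in epididymal adipocytes. It was named after its values were seen. In contrast to Tbx1, the inguinal excess of Pitx1 was thus measured in the SVF, while its adipocyte groups overlapped.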

How the data were processed

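RNA of adipocyte and SVF samples was hybridised, per the labels, with Cy3 on one-colour mouse arrays. Per the file headers, Feature Extraction (9.5.3.1 on the 6 white adipocyte arrays, 10.5.1.1 on the other 12) gave the deposited intensity of each spot, background corrected, with marks for spots well above background. The authors also deposited a table of log2 values, whose normalization is not given in the sources used here. Each of its 18 columns matched best an array of its own group, but only 4 matched the array of the same number.

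Control spots and spots marked as outliers or non-uniform were left out, and spots of a probe were averaged. The filter kept 28595 of 41174 probes, those well above background throughout 1 or more of the 6 groups. A RefSeq table (GRCm38.p6) named 24375 probes through an accession, 6301 through a symbol and 2426 through a synonym, and 8072 kept the array's name. Limma 3.58.1 (R 4.3.3; lmFit, eBayes, two-sided, Benjamini-Hochberg over 19217 genes, threshold 0.05) was fitted to all 18 arrays with 6 group means. The fit was tested on simulated data with 200 genes shifted between the adipocyte groups. It recovered 1% of them at a shift of 1 unit, 61% at 2 units and 93% at 4 units. False calls numbered 0, 7 and 14 in that order. A difference near 1 unit was thus rarely called there. The followed gene Nr2f1 did not pass the filter.

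Named were, per direction, the 12 genes with a symbol and the largest difference that passed without overlap, up to 6 more not above background in the lower group, up to 4 per list, 20 followed genes and up to 6 per direction of the interaction. Members and lists were chosen with earlier results of these data known. The capped background for normexp, the olfactory receptor covariate, the fit without epididymal replicates 1 and 3 and the filter on mean level were chosen after seeing the data. Some results that passed are not reported here. The number of arrays limits the precision.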

Additional observations from a re-analysis of the deposited data

Results flagged for a closer look

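For 8 named genes, the inguinal minus epididymal difference in adipocytes departed from that in the SVF by the interaction term of the fit. In the inguinal direction, Tbx1 departed by 4.93 ± 0.65 (adjusted p = 0.00756) and Trib1 by 2.45 ± 0.41 (adjusted p = 0.0323), and both were well above background on all 12 white fat arrays. Without 1 of these 12 arrays in turn, Tbx1 passed in all 12 fits (adjusted p up to 0.0397) and Trib1 in 5 (up to 0.105). With normexp background correction the interaction was 3.67 for Tbx1 (adjusted p = 0.0256) and 2.37 for Trib1 (adjusted p = 0.0537). With the olfactory receptor covariate it was 5.05 (adjusted p = 0.148) and 2.51 (adjusted p = 0.352). With only the 12 arrays in the fit neither gene passed (adjusted p = 0.114 and 0.235). In the epididymal direction, Pigr, the transport receptor for secreted antibodies, departed by -5.27 ± 0.84 (adjusted p = 0.0265), Cst9 by -4.72 ± 0.74 (adjusted p = 0.0244) and the pituitary factor Pou1f1 by -4.66 ± 0.47 (adjusted p = 0.00111). The sulfotransferase Sult1b1 departed by -4.62 ± 0.59 (adjusted p = 0.00756), the choline transporter Slc5a7 by -4.07 ± 0.66 (adjusted p = 0.0304) and Dpysl5 by -3.87 ± 0.57 (adjusted p = 0.0184). These 6 sizes are fitted to signals mostly near background. Pigr, Cst9, Pou1f1 and Sult1b1 were not well above background on any inguinal adipocyte array, Dpysl5 was on 1 and Slc5a7 on 2, and in the SVFs Pigr and Dpysl5 were on 1 inguinal array and the other 4 genes on none. In adipocytes alone, Pigr was at least 4.70-fold, Cst9 at least 6.02-fold, Pou1f1 at least 5.92-fold and Sult1b1 at least 2.74-fold above the inguinal level. With normexp background correction the interactions were -1.42 for Pigr, -1.38 for Cst9, -1.30 for Pou1f1, -0.98 for Sult1b1, -1.68 for Slc5a7 and -1.02 for Dpysl5, and none passed. Without 1 of the 12 arrays, Pou1f1 (adjusted p up to 0.00754) and Sult1b1 (up to 0.0397) passed in all 12 fits, Dpysl5 in 8 (up to 0.0821), Cst9 in 6 (up to 0.103), and Pigr (up to 0.104) and Slc5a7 (up to 0.105) in 5.

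Pou1f1 was at -6.75, -6.80 and -7.47 in inguinal and -2.62, -2.97 and -3.17 in epididymal adipocytes, and at -6.55, -7.92 and -7.44 on inguinal and -7.95, -7.99 and -7.68 on epididymal SVF replicates 1 to 3. The epididymal adipocyte arrays were thus the highest of these 12. The other 5 in this direction had the same order of groups in the adipocytes, and none was well above background on all 3 inguinal arrays. The olfactory receptor probes had medians of -3.62, -6.00 and -4.52 on the epididymal adipocyte arrays. With each array's olfactory receptor median as a covariate the interactions were -4.46 for Pou1f1, -4.25 for Sult1b1, -4.27 for Pigr, -3.55 for Slc5a7, -3.46 for Cst9 and -3.16 for Dpysl5, of which Pou1f1 passed. The part of that raised signal in these 6 genes was not tested otherwise.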

How the results depend on the processing

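The 75 named differences that passed kept their sign under all of the 29 alternatives that gave a value. This was partly fixed by the naming. Genes without overlap cannot change sign when 1 adipocyte array is left out, and list members were picked because they had passed. Among followed genes that did not pass, Shox2, Adipoq, Pparg and Adrb3 changed sign under some alternatives. Of the 40 list medians, 14 changed sign under 1 or more alternatives: depot patterning (-0.67 to 0.27), mature adipocyte (-0.48 to 0.39), triglyceride (-0.13 to 0.58), fatty acid uptake (-0.09 to 0.43), steroid (-0.15 to 0.07), hormone receptor (-0.37 to 0.20), insulin (-0.14 to 0.26), macrophage (-1.21 to 0.56), neutrophil (-0.11 to 1.08), MHC class II (-0.48 to 1.04), lymphatic (-1.09 to 0.18), mural (-0.31 to 0.24), progenitor (-0.16 to 0.34) and mammary and skin (-0.89 to 0.85). The counts of genes called moved widely from 169 (inguinal higher), 1313 (epididymal higher), 57 (SVF) and 15 (interaction). In that order, normexp background correction with a capped background gave 35, 97, 46 and 3, and on mean signals with the 6 adipocyte arrays alone 17 and 20. Quantile normalization gave 378, 648, 58 and 18, and the authors' deposited values gave 235, 720, 58 and 15. Only probes above background on every array compared left 34, 92, 23 and 1, only probes with a mean above the median level 35, 70, 24 and 1, and no filter 127, 1959, 39 and 16. With only the arrays compared in the fit the counts were 46, 253, 20 and 1, and with array weights 1220, 3552, 168 and 318. The slide as a random block gave 97, 947, 76 and 15, and the scan day 99, 988, 71 and 16. No slide or scan day held adipocyte arrays of both pads, and epididymal adipocyte replicates 2 and 3 shared a slide and a day. For the adipocytes, pad and slide or scan day thus cannot be told apart. The olfactory receptor covariate left 3, 3, 68 and 1. Without inguinal SVF replicate 1 and epididymal adipocyte replicate 3 together there were 63, 360, 193 and 8, and without epididymal adipocyte replicates 1 and 3 there were 2, 1, 53 and 0 (limma; 2218 unadjusted p under 0.05 for the interaction with all arrays). Fits that left out 1 of the 12 white fat arrays gave 15 to 410 genes higher in inguinal, 102 to 2381 higher in epididymal, 21 to 228 in the SVF and 4 to 636 for the interaction. The 636 came without epididymal adipocyte replicate 2, the 410 without inguinal SVF replicate 3, the 228 without inguinal SVF replicate 1 and the 21 without epididymal SVF replicate 2. The cause was not tested, except that fewer probes or arrays enter some of these fits.

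The replicate block gave 276, 1724, 48 and 25. The deviations of same-numbered inguinal and epididymal adipocyte arrays correlated at -0.17, 0.03 and -0.06. The labels do not say whether same-numbered samples came from the same animals. With so few arrays these values cannot decide it, and the numbers were not treated as pairs. Fold changes of dim genes are limited by signal near background, most of all in the inguinal adipocytes, where only 473 of the 1313 genes were well above background on all 3 arrays.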

Other observations

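Some genes that passed with all arrays and without each adipocyte array in turn, and were well above background on all 6, lie outside the lists and the naming rule. They were chosen after their values were seen. Nrn1, which encodes the neurite growth protein neuritin, was at -0.45, -0.33 and -0.21 in inguinal and -2.92, -3.35 and -3.30 in epididymal adipocytes, a difference of 2.86 ± 0.27 with an adjusted p of 0.000256. Frat2, an activator of Wnt signalling, was at 1.75, 1.74 and 0.53 in inguinal and -0.99, -1.09 and -1.05 in epididymal adipocytes (2.38 ± 0.39, adjusted p = 0.00653). The inguinal arrays lay above the epididymal ones for both.

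In the other direction, Pcbd1, a dehydratase that recycles the pterin cofactor and a partner of Hnf1 factors, was at -1.52, -1.59 and -1.28 in inguinal and 1.11, 1.10 and 2.20 in epididymal adipocytes (-2.93 ± 0.45, adjusted p = 0.00552). The potassium channel Kcnj15 was at -2.91, -3.91 and -2.39 in inguinal and -1.48, -0.99 and -0.49 in epididymal adipocytes (-2.08 ± 0.35, adjusted p = 0.00677), Ankrd29 at -1.10, -1.22 and -1.54 in inguinal and 0.36, 0.71 and 1.13 in epididymal adipocytes (-2.02 ± 0.28, adjusted p = 0.00326) and Ptchd4 at -2.97, -3.52 and -2.74 in inguinal and -0.43, -0.58 and -0.15 in epididymal adipocytes (-2.69 ± 0.49, adjusted p = 0.00879). For each of these 4 the epididymal arrays lay above the inguinal ones without overlap. Epididymal replicate 3, on which olfactory receptor probes were also raised, was the highest of its group for all 4.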
